A study of Homo sapiens with 4 samples.

Results

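The cytosolic ribosomal protein genes were described in Ishikawa cells, a human endometrial adenocarcinoma line, carrying the Y537S form of estrogen receptor alpha. Members were rows of the count table whose symbol is RPL (large subunit) or RPS (small subunit) and a number. A letter A, X or L and a digit could follow, and symbols of another form, such as RPL36AL, were not taken. RPSA, RPLP0, RPLP1 and RPLP2 were added, and the RPS6K kinases and pseudogenes were left out. This gave 84 of 26364 symbols, of which 52 code for large subunit and 32 for small subunit proteins. The symbols alone set the membership, but the family was chosen by its measured E2 fold changes in these same libraries, from the estradiol (E2) against vehicle contrast. Its E2 values are therefore a description and support nothing.

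Per the labels, the study used 2 clones of the mutant line, which were kept in medium free of phenol red with charcoal-stripped serum and then given, for 8 h, either the vehicle DMSO at 0.1% or E2 at 10 nM. All libraries carry the ESR1 mutation, so no group here lacks it. There were 2 DMSO and 2 E2 libraries of poly(A)-selected RNA. Each column name holds one of the tags A4 and B212, which the labels leave unexplained, and each tag has 1 DMSO and 1 E2 library. The libraries are therefore named by treatment and tag. The labels do not say whether libraries of a group came from separate cultures beyond the clones, so p-values speak only for these samples. They rest on a spread pooled in part over genes, not on each gene's own spread alone.

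A cytosolic ribosome joins a small subunit, which reads the mRNA, to a large subunit, which forms the peptide bonds. Each protein is needed in about equal numbers in every ribosome, and most of the mRNAs begin with a C followed by a run of pyrimidines, the 5′ terminal oligopyrimidine (TOP) motif, through which mTOR signalling and LARP1 control their translation. Many of these genes have processed pseudogene copies, which share reads with the gene itself. In the endometrium E2 is a growth signal for the epithelium, and making ribosomes is part of growth.

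The sequences around the RefSeq start sites (build GRCh38.p14) are shown for the members on which the results below turn, to set their starts beside this motif. Each line gives 30 bases before and 20 bases from the start on, 5′ to 3′ on the gene's own strand. Capitals mark the longest run of C and T between 10 bases before and 15 bases after the start. The first 6 genes had E2 log2 fold changes above the median of the family, the next 2 were level in both tags, and the paralog of the second follows. A parent with its paralog comes next, and the last 2 had the lowest log2 fold changes among members above 1 CPM in every library.

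RPS3A (chr4:151099598-151099647, plus strand): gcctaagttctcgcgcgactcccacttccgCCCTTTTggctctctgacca
RPSA (chr3:39406690-39406739, plus strand): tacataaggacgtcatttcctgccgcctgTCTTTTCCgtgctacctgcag
RPL41 (chr12:56116603-56116652, plus strand): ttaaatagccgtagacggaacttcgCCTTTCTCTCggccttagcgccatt
RPL9 (chr4:39458903-39458952, minus strand): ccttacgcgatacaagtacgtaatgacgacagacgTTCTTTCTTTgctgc
RPL31 (chr2:101002259-101002308, plus strand): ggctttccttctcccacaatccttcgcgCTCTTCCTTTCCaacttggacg
RPS6 (chr9:19380217-19380266, minus strand): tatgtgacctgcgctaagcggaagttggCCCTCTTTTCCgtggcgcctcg
RPL3 (chr22:39319604-39319653, minus strand): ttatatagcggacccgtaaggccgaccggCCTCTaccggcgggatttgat
RPL22 (chr1:6199576-6199625, minus strand): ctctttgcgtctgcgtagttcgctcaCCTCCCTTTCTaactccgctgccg
RPL22L1 (chr3:170870176-170870225, minus strand): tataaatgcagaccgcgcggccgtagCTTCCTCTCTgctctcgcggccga
RPS27 (chr1:153990732-153990781, plus strand): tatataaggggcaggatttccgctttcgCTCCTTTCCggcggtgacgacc
RPS27L (chr15:63157458-63157507, minus strand): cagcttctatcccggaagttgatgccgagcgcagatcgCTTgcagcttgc
RPS26 (chr12:56041888-56041937, plus strand): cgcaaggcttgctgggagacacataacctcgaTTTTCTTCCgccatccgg
RPL39 (chrX:119791611-119791660, minus strand): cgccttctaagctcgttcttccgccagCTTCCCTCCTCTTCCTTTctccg

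Within that window the run of C and T held 18 bases at RPL39, where it goes on past the window, and 11 at RPL22. It held 7 at RPS3A. At RPS27L, in contrast to its parent RPS27, the longest run held 3 bases and the start base was G. The start base was also not C at RPL9 (A) and RPS26 (G), and at RPL3 a C was not followed by 4 bases that were each C or T, so these 4 of the printed starts lack the motif. Of the 84 members, 67 had at least 1 start in the RefSeq table of promoters, with 83 starts in all. A C at the start was found at 62.7% of the members' starts and at 14.7% of all 35116 starts in the table. A C followed by 4 bases that were each C or T was found at 56.6% of the members' starts and at 4.07% of all starts.

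Short motifs were searched on both strands in the 300 bases from 250 before to 50 after each start, and motifs may overlap. The estrogen response element, GGTCA and TGACC with 3 bases of any kind between them, was in 0 of the 83 members' windows and in 0.0570% of all windows, and its arm GGTCA was in 38.6% and 37.4%. CCGGAAG, a binding motif of ETS factors such as GABPA, was in 33.7% of the members' windows and 10.3% of all. AAGATGGCG, the motif of YY1, was in 7.23% and 1.75%. The E-box CACGTG, bound by MYC and related factors, was in 6.02% and 7.26%. These matches describe letters in the windows only. Among the matched members that were tested, the 45 with a TOP-like start had a median E2 log2 fold change of 0.30 and the 19 without one had 0.24.

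The libraries held 71575816 to 85222856 counts. No library repeated another, since the lowest chi-square per degree of freedom between any 2 of them was 27.1. The 7 markers of endometrial epithelium and adenocarcinoma summed to 2298 to 3059 counts scaled to library size (CPM), with ESR1 at 86.5 to 109.9 CPM. The 4 immune markers summed to 1.64 to 2.45 CPM and the 3 endothelial markers to 2.11 to 4.50 CPM, with CD3E and PECAM1 at 0 counts in all 4 libraries. The 5 stromal markers summed to 93.4 to 129.2 CPM in A4 and 34.8 to 42.6 CPM in B212, and all but a little of it was COL1A1 (34.5 to 127.8 CPM over the 4 libraries), while DCN had at most 1 count. What part this has in the differences between the tags was not tested.

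The family was abundant. In CPM, with TMM factors (trimmed mean of M values) and divided by the coding length in kb, the tested members had a median of 1152. RPS24 stood highest at 4933 CPM per coding kb, followed by RPL35A at 3507, RPL37A at 3480, RPS6 at 3464 and RPL38 at 3082. On this scale RPS6, the substrate of the S6 kinases, differed from RPL37A by less than its own spread between libraries. At the other end, 4 members were under the count filter and were not tested. RPS18 had 0, 0, 0 and 1 counts in A4 DMSO, A4 E2, B212 DMSO and B212 E2, RPL21 had 5, 9, 6 and 2, and RPL10L, a copy of RPL10 known from testis, had 1, 1, 1 and 0. A count of 0 allows up to 3 counts, which is 0.0382 CPM at the mean library size, and covers counting error only.

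Some of these low values go with sequence shared between genes. Every other symbol counted as another gene, so a readthrough name of the same locus could count as well. In the GENCODE 29 transcripts, the median member had 74.0% of the 32-base words of its coding sequence in transcripts of other genes as well, and 11 members had 100%, among them RPS3A, RPS10, RPS26, RPS27, RPS28, RPL7, RPL17, RPL21, RPL36A, RPL39 and RPL41. The median level was 304 CPM per coding kb in the tested members with 100% and 1357 in those with up to 25%. It was 855 in those over 75% and under 100%, and highest, at 1535, in those over 25% to 75%. RPS18 shared 80.7%, whereas RPL10L shared 3.92% and RPL3L, also among the lowest, 0%. Reads for RPS18 were few, but the row of its pseudogene RPS18P9 held 1350, 2035, 1401 and 1357 counts. How reads that fit several places were counted is not given in the sources used here, so the level of any such member is uncertain, and its part in the results below was not tested.

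With E2, summed counts of the 84 members went from 4.12% to 5.29% of the library in A4 and from 4.86% to 5.37% in B212. Both E2 libraries lay above both DMSO libraries (mean 5.33% ± 0.0557 against 4.49% ± 0.527, SD, n = 2 each). The exact two-sided permutation p was 0.333, the smallest that 2 against 2 can give. In bulk RNA, fewer cells of a type and less RNA per cell cannot be told apart. Restricted to the 25 members with up to 50% shared words, the share went from 1.42% to 1.87% in A4 and from 1.62% to 1.80% in B212.

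Gene by gene, the fit without a block for the clone tag called 0 of the 80 tested members and 0 of all 15599 tested genes (0.0%) by edgeR's quasi-likelihood test at an adjusted p of 0.05. At an unadjusted p under 0.05 it held 20 members and 150 of all genes. DESeq2 called 1 gene and limma-voom none. The biological coefficient of variation was 32.2% in that fit and 5.99% with the tag as a block. The libraries of a treatment differ in tag, so the fall means that the tag difference was much alike under both treatments. No spread within a tag and treatment was measured. With the block, 39 members were called higher and 1 lower, and 40 were not called. Of all tested genes 9.56% were then called, 6.13% higher and 3.44% lower. Since the contrast is the one the family was picked with, nothing is read from this difference.

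The median log2 fold change of the 80 members was 0.26 in both fits, beside −0.01 over all tested genes. In A4 the median was 0.40 and 74 of 80 members were higher with E2. In B212 it was 0.13 and 68 of 80 were higher. The change was in the same direction in both tags for 65 members that were higher and 3 that were lower, and 12 members went opposite ways. The change in A4 exceeded that in B212 in 74 of 80 members and in 7657 of all 15599 tested genes. This difference between the tags has 1 library per combination and was not tested. Across the 80 members the log2 fold changes in A4 and B212 were alike in order (Spearman rho 0.84, Pearson r 0.69), as a description over genes, which are not independent replicates.

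**Figure D1:**
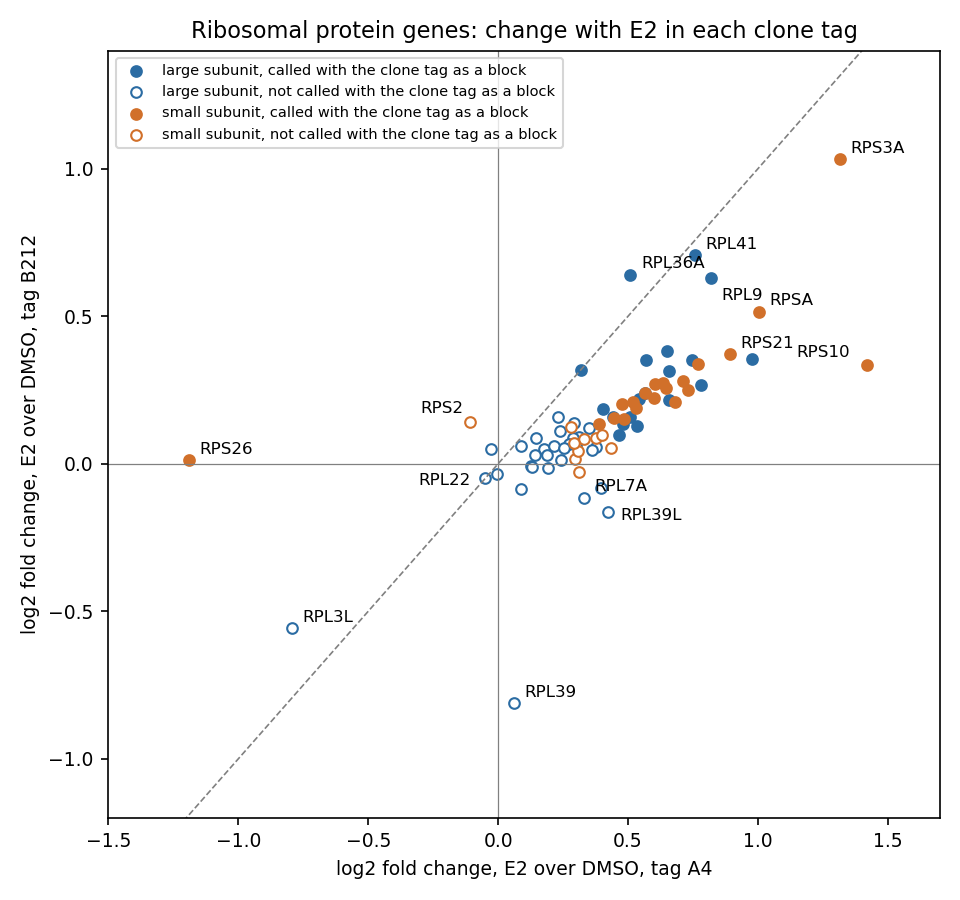
Log2 fold change with E2 over DMSO in tag A4 (x axis) against tag B212 (y axis) for the 80 tested members, blue for large and orange for small subunit genes. Filled points were called with the clone tag as a block, and the dashed line marks equal change. Most points lie to the right of 0 and under the dashed line, and RPS26, RPL39 and RPL3L stand apart.

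The small subunit genes had the larger change. Their median log2 fold change with the block was 0.35 (A4 0.50, B212 0.20), with 19 of 30 called higher and 1 lower. The large subunit genes had a median of 0.20 (A4 0.33, B212 0.09), with 20 of 50 called higher and 0 lower. Over all tested genes 6.13% were called higher and 3.44% lower. The family was picked on this contrast, so nothing is read from these counts. The medians differed by −0.15, large minus small, and by −0.07 once a trend on the length and GC content of transcripts was removed. With a trend on coding length and GC content removed, fitted on all or on other genes, they differed by −0.11. The ratio of summed large to small subunit counts went from 1.68 to 1.49 in A4 and from 1.69 to 1.59 in B212. Both E2 ratios lay under both DMSO ratios, at an exact two-sided permutation p of 0.333, again the smallest possible.

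Among the small subunit genes, RPS3A, whose protein lies near the mRNA exit and the site of eIF3, had the smallest p-value of the family. It was counted at 122 CPM with DMSO and 304 CPM with E2 in A4, and at 182 and 372 CPM in B212. Both E2 libraries lay above both DMSO libraries, with a log2 fold change of 1.17 ± 0.08 (SE) and an adjusted p of 1.74e-08 in edgeR with the block. Each of its coding words also occurs in at least 1 of 45 other genes, so its level is uncertain.

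RPS21, a small subunit protein with 15.6% shared words, went from 258 to 478 CPM in A4 and from 287 to 371 CPM in B212. The groups did not overlap, and its log2 fold change was 0.63 ± 0.09 (SE, adjusted p 0.000553, edgeR with the block). RPS6 went from 2010 to 3125 CPM in A4 and from 2362 to 2853 CPM in B212, with a log2 fold change of 0.45 (adjusted p 0.00379, the same fit). RPS14, lost with part of a chromosome arm in a myelodysplastic syndrome, had a log2 fold change of 0.44 and RPS27A, made as a fusion with ubiquitin, 0.45. RPS3, at the mRNA entry site and also a DNA repair protein, had 0.36. All 3 were called higher. RPS19, the gene most often mutated in Diamond-Blackfan anemia, was not called, with a log2 fold change of 0.16 ± 0.08 (SE) and 423, 519, 443 and 449 CPM in A4 DMSO, A4 E2, B212 DMSO and B212 E2. There the E2 library of B212 stood only just above its DMSO library.

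RPS10, picked for its size after its values were seen, had 1.93 CPM in A4 DMSO and 5.19 in A4 E2, and 3.49 and 4.41 in B212. The E2 libraries lay above the DMSO libraries, but the level is far under that of its neighbours in the ribosome and all of its words are shared. Its log2 fold change was 0.85 (adjusted p 0.00819, edgeR with the block), while RPS10P7, a pseudogene row, held 1.08 to 1.35 CPM and was not called. The readthrough rows RPS10-NUDT3, RPL17-C18orf32 and RPL36A-HNRNPH2, which overlap 3 members, had 0 counts in all 4 libraries.

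RPSA, the small subunit protein also known as the laminin receptor, needs its pseudogene beside it. RPSA went from 306 to 615 CPM in A4 and from 377 to 539 CPM in B212, a log2 fold change of 0.76 ± 0.09 (SE, adjusted p 6.87e-05, edgeR with the block). RPSAP58 went the other way, from 190 to 53.2 CPM in A4 and from 170 to 72.4 CPM in B212, a log2 fold change of −1.53 ± 0.10 (SE, adjusted p 1.74e-08). RPSAP58 was the one pseudogene row called lower.

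Of the reads assigned to the pair, RPSAP58 held 38.3% in A4 DMSO and 7.97% in A4 E2, and 31.1% and 11.8% in B212. Summed over both rows, the level went from 496 to 668 CPM in A4 and from 547 to 612 CPM in B212. The summed log2 fold changes were 0.43 in A4 and 0.16 in B212. These lie near the medians of the family, 0.40 and 0.13, whereas RPSA alone had 1.01 and 0.52. Whether reads moved between the rows or both RNAs changed was not tested.

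**Figure D2:**
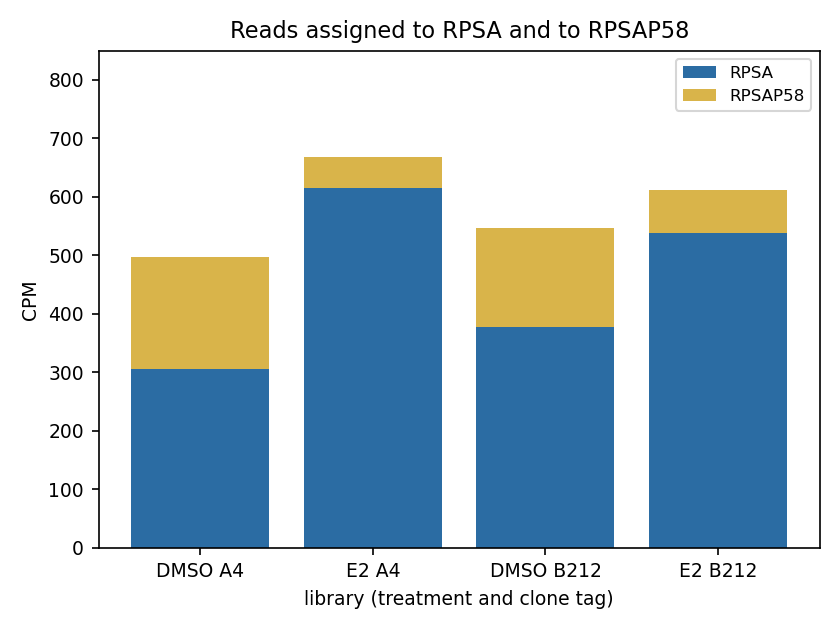
Stacked bars of the level (CPM) assigned to RPSA (blue) and to its pseudogene row RPSAP58 (yellow) in each of the 4 libraries. The summed bars rise less with E2 than the RPSA part does, from 496 to 668 CPM in A4 and from 547 to 612 CPM in B212.

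Among the large subunit genes, RPL9 and RPL41 moved alike in both tags. RPL9 went from 182 to 322 CPM in A4 and from 218 to 338 CPM in B212, with a log2 fold change of 0.72 (adjusted p 8.53e-06, edgeR with the block). RPL41, which codes for the shortest protein of the family, had 16.2 and 27.5 CPM in A4 and 17.4 and 28.4 CPM in B212, a log2 fold change of 0.73 (adjusted p 4.88e-05). In neither gene did the treatments overlap, and in RPL41 the tags lay close together within each treatment. RPL31, at the exit of the peptide tunnel and picked for its size after its values were seen, had 309 and 609 CPM in A4 and 407 and 521 CPM in B212. RPL34 had a log2 fold change of 0.52 and was called higher as well.

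RPL5 and RPL11 form a particle with the smallest large subunit rRNA and bind MDM2 when ribosome assembly fails. RPL5 went from 1098 to 1588 CPM in A4 and from 1454 to 1681 CPM in B212 and was called higher (log2 fold change 0.37, adjusted p 0.00927, edgeR with the block). RPL11 had 693, 814, 789 and 881 CPM in A4 DMSO, A4 E2, B212 DMSO and B212 E2. Its log2 fold change was 0.20 ± 0.07 (SE) at an adjusted p of 0.0965, and the DMSO library of B212 lay between the A4 libraries.

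The proteins of the stalk, which calls the elongation factors to the ribosome, stood nearly level. RPLP0 had 1092 and 1162 CPM in A4 and 1202 and 1254 CPM in B212. The log2 fold changes were 0.08 for RPLP0, 0.11 for RPLP1 and 0.06 for RPLP2, each with an SE of 0.07, and none was called. RPLP1 and RPLP2 turned below 0 under each of the 3 trends on length and GC content, and RPLP0 under the trend on full transcript length.

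RPL3, beside the peptidyl transferase centre, was level in both tags, with 1208 and 1204 CPM in A4 and 1546 and 1511 CPM in B212. RPS2, at the mRNA entry site, had 509 and 472 CPM in A4 and 509 and 562 CPM in B212. RPL28 had 506 and 538 CPM in A4 and 611 and 575 CPM in B212, and its sign depended on the fit. None of the 3 was called, and the signs of RPL3 and RPS2 also turned under some scalings or trends. RPL10, RPL13, RPL7A, RPL23A and RPS28 were higher with E2 in A4 and slightly lower in B212, by between −0.01 and −0.11 on the log2 scale in B212, and were not called.

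**Figure D3:**
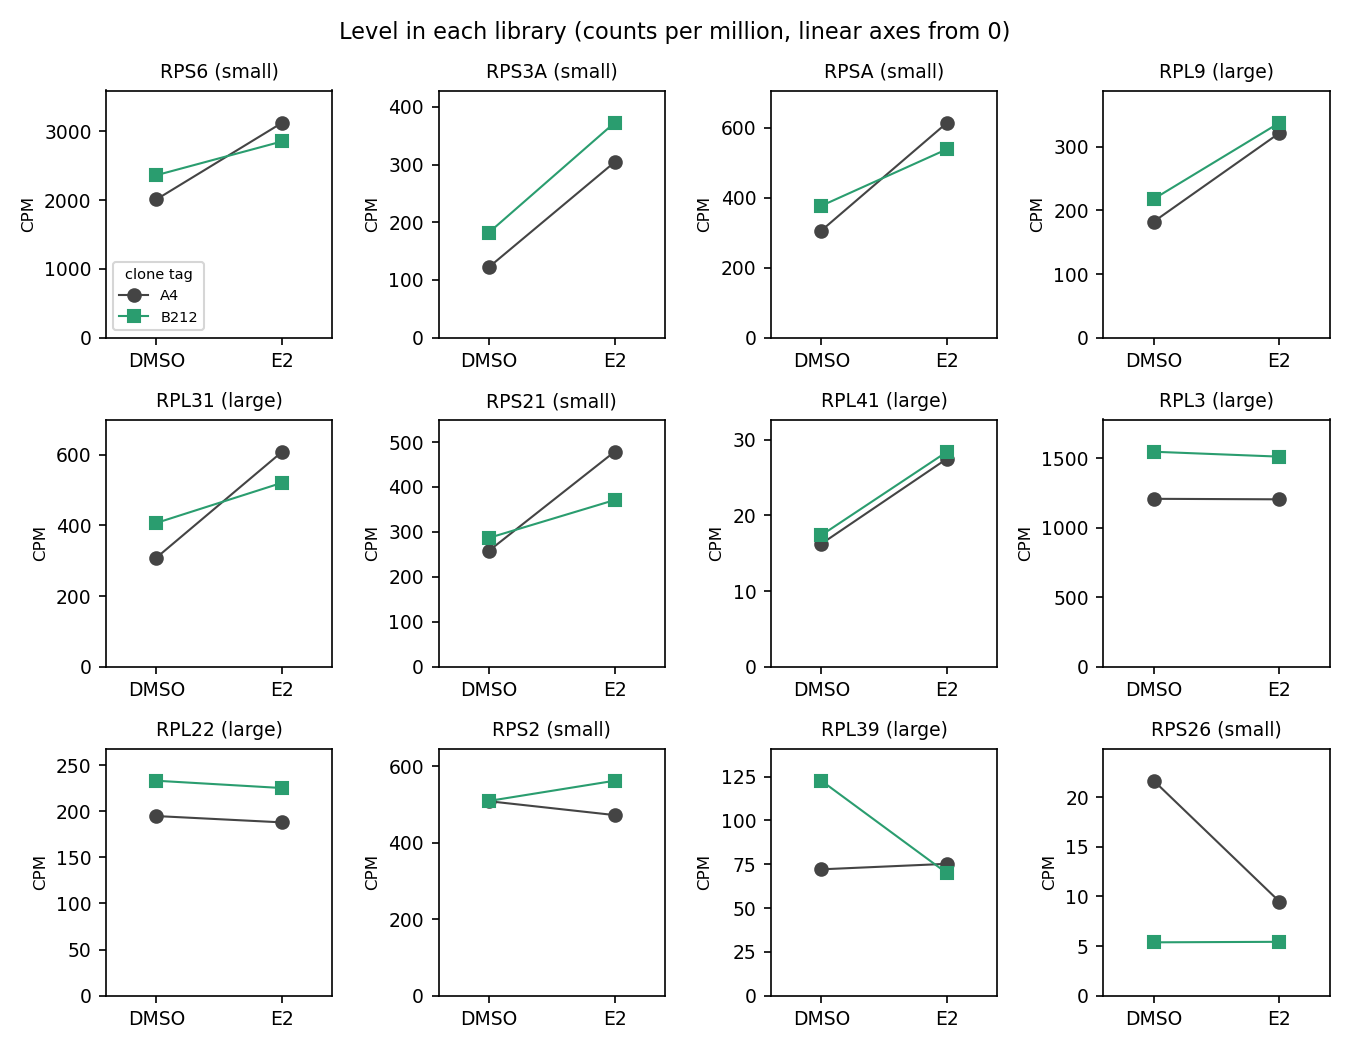
Level (CPM, linear axes from 0) with DMSO and E2 in tag A4 (circles) and tag B212 (squares) for 12 members, lines joining the libraries of a tag. The first 7 panels are higher with E2 in both tags, RPL3 and RPL22 are nearly level, and RPL39 and RPS26 are each lower with E2 in 1 tag.

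Few members went against the family. RPS26, at the mRNA exit site and another gene of Diamond-Blackfan anemia, had 21.7 CPM in A4 DMSO, 9.48 in A4 E2, 5.38 in B212 DMSO and 5.43 in B212 E2. The log2 fold change in A4 was −1.19 and that in B212 was 0.01, so the call with the block (−0.66 ± 0.17, SE, adjusted p 0.0219, edgeR) rests on the A4 DMSO library. Without that library the change was 0.48 in the fit with no block, which takes in the gap between the tags. RPS26 was not called with DESeq2 size factors and the block, and DESeq2 with the block gave it no adjusted p. RPL39, a small protein of the exit tunnel, had 72.1 and 75.2 CPM in A4 and 123 and 69.8 CPM in B212. Here the B212 DMSO library stood above the other 3, and the gene was not called (−0.38 ± 0.12, SE, adjusted p 0.0546, edgeR with the block). It was called lower with the block under library sizes alone and under each of the 3 trends on length and GC content. Without the B212 DMSO library its change was −0.0053 in the fit with no block, which takes in the tag gap as well. All words of RPS26 and of RPL39 are shared with other genes.

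RPL22, an RNA-binding protein of the large subunit, was slightly lower in both tags, with 195 and 188 CPM in A4 and 233 and 225 CPM in B212 (−0.05 ± 0.07, SE). It was not called, except that it was called lower once a trend on length and GC content was removed. With RPL3L and RPL3 it made up the 3 members that were lower in both tags.

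The paralogs with an L name differ from their parents in tissue and regulation. RPL22L1, known to rise where RPL22 is lost, had 353 CPM with DMSO and 557 with E2 in A4, and 567 and 706 in B212. The E2 library of A4 lay under the DMSO library of B212, so the treatments overlapped, but within each tag the gene was higher with E2 (log2 fold change 0.49 ± 0.08, SE, adjusted p 0.00149, edgeR with the block). Per coding kb RPL22L1 was counted at 1491 CPM and its parent RPL22 at 548. Among the pairs of members it was the only one in which the paralog had the higher level. RPL36AL, a paralog of RPL36A, was not a member and was not compared. However, 96.9% of the words of RPL22 were shared with other genes, against 15.8% of those of RPL22L1. The level of RPL22 is therefore uncertain, and the part of shared words in this order was not tested.

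RPS27L, a target gene of p53, had 52.5 and 79.9 CPM in A4 and 59.3 and 71.6 CPM in B212 and was called higher (0.44 ± 0.08, SE, adjusted p 0.00309, the same fit). Its parent RPS27 had 237, 288, 279 and 303 CPM and was not called (0.20 ± 0.07, SE, adjusted p 0.0797). The call in one and not in the other is no test of a difference between them. The pair shared little sequence, since 9.05% of the words of RPS27L occur elsewhere.

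RPL26, whose protein binds p53 mRNA, and RPL26L1 were both called higher. RPL26 went from 437 to 647 CPM in A4 and from 562 to 717 CPM in B212, and RPL26L1 from 22.0 to 34.8 and from 18.8 to 21.9. The log2 fold changes were 0.46 for RPL26 and 0.44 for RPL26L1. Neither RPL7, with a log2 fold change of 0.17, nor RPL7L1, a protein of the nucleolus, with 0.01, was called, and both signs turned under other settings.

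RPL39L and RPL3L were low. RPL39L, best known from the male germ line, had 7.66 and 10.3 CPM in A4 but 0.141 and 0.123 CPM in B212, with little change by E2 against the gap between the tags. RPL3L, which replaces RPL3 in striated muscle, had 14 to 37 counts in a library, or 0.171 to 0.434 CPM. It was lower with E2 in both tags but was not called (−0.71 ± 0.38, SE, adjusted p 0.251, edgeR with the block).

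**Figure D4:**
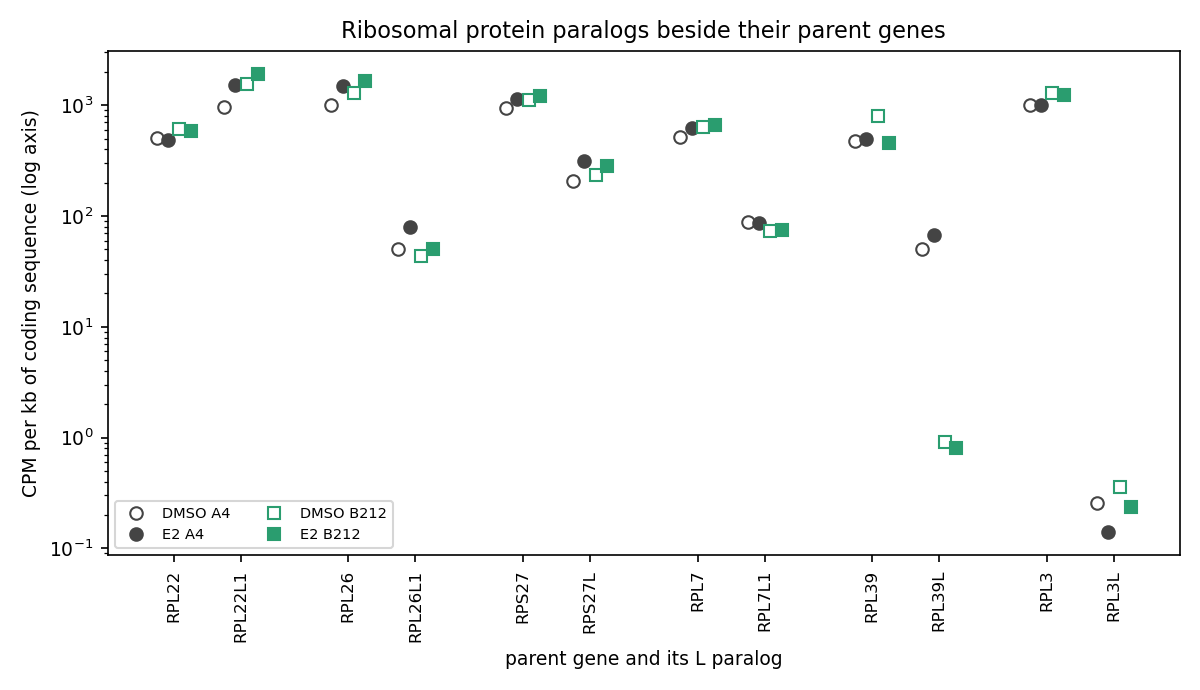
Level in CPM per kb of coding sequence (log axis) for 6 parent genes and their L paralogs in the 4 libraries, open symbols for DMSO and filled for E2, circles for A4 and squares for B212. RPL22L1 stands above RPL22, whose level is uncertain with 96.9% shared words. The other 5 paralogs stand below their parents, and RPL39L is near absent in B212.

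The tags were compared with each other, B212 against A4, with treatment as a covariate. Over all tested genes 7950 were called, 51.0%, with 25.2% higher in B212 and 25.8% lower. Of the 80 members 15 were called higher and 5 lower, a smaller share than among all genes, and the median log2 difference was 0.05. The large subunit genes held 13 of the higher and 4 of the lower calls, out of 50, and the small subunit genes 2 and 1, out of 30. The split depends on the scaling. With library sizes alone it was 23 higher and 5 lower for members and 4761 and 3176 for all genes, and with a length and GC trend removed it was 14 and 21 for members. Without the treatment term 4 members were called, 2 higher and 2 lower, beside 4456 of all genes. Fits leaving out 1 library also had no treatment term. Their tag differences take in the E2 change, so their calls are not given.

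RPL39L had the largest difference of any member, −6.05 ± 0.21 on the log2 scale (SE, adjusted p 5.37e-15, edgeR). It had 561 and 843 counts in A4 and 12 and 9 in B212, so the tags lay far apart under both treatments. RPS26 was lower in B212 by −1.43 and RPL26L1 by −0.45, and RPL35 by −0.29. Higher in B212 were RPL36A, with 2.76 and 3.94 CPM in A4 and 4.63 and 7.23 CPM in B212 (0.82 ± 0.13, SE, adjusted p 2.97e-05), RPL22L1 at 0.51, RPL13A, which silences translation of inflammatory mRNAs, at 0.47, and RPL12 at 0.43. RPL22 was also higher in B212, by 0.26, so RPL22 and RPL22L1 differed between the tags in the same direction.

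Coding length went with the E2 change in all genes. The members' coding sequences were short, with a median of 454.5 bases against 1425 in the other tested coding genes. Among other coding genes the median log2 fold change with the block was 0.20 for up to 300 bases, 0.10 for 300 to 600, 0.02 for 600 to 1300 and −0.06 above 1300. The share called higher in these bins was 27.7%, 15.8%, 7.32% and 2.50%. The members had 0.33, 0.30 and 0.15 in the first 3 bins, with 45.5%, 60.0% and 29.2% called higher, on 11, 45 and 24 genes.

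In each bin the members' values lay above those of other genes of like coding length. The family was picked on this contrast, so nothing is read from that. With the block the medians of both sets decreased with length. Once a smooth trend on coding length and GC content was removed from each library, the members' median was 0.15, with 27 called higher and 3 lower (RPS26, RPL22 and RPL39). Of the 39 members called higher with the block, 27 kept the call there. Within the family, the E2 change had a Spearman rho of −0.24 with coding length, −0.38 with GC content and 0.08 with the share of shared words, over 80 genes that come from the same libraries. What part length, or RNA quality, has in the E2 change was not tested.

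**Figure D5:**
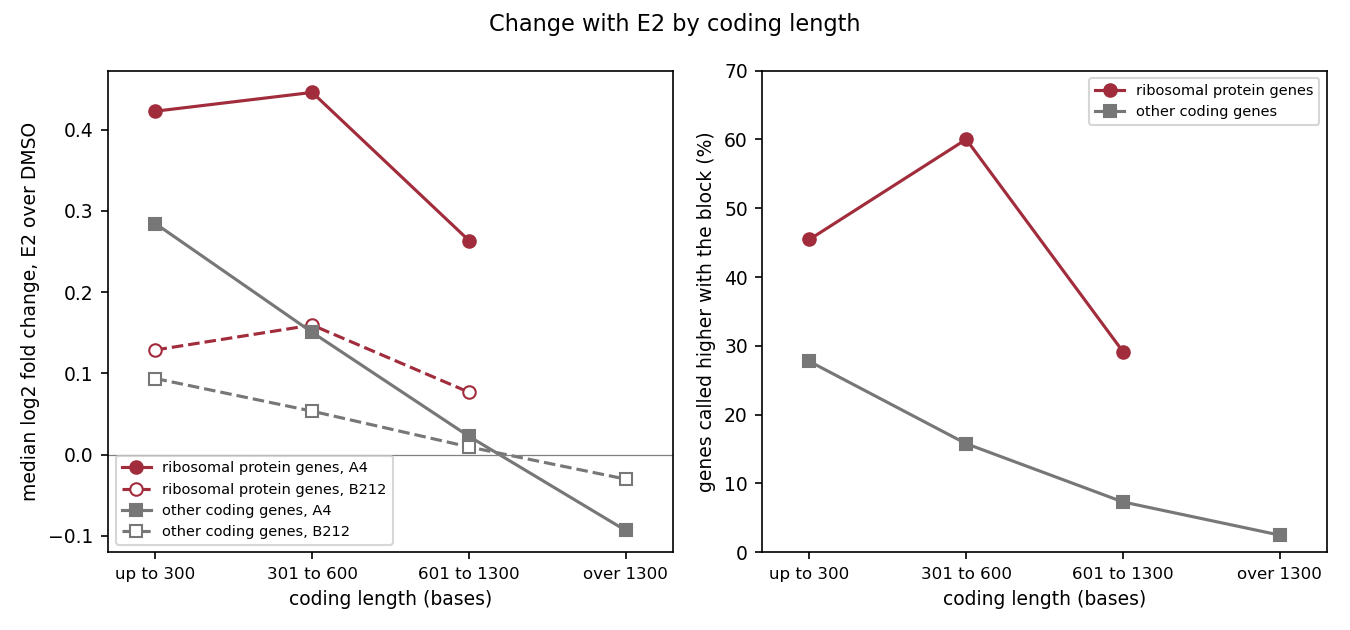
Left, median log2 fold change with E2 by coding length for ribosomal protein genes (red circles) and other coding genes (grey squares), solid lines for A4 and dashed for B212. Right, the share of genes called higher with the clone tag as a block (%), which falls from 27.7% to 2.50% in other genes with length and stands at 45.5%, 60.0% and 29.2% in the members.

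The call held across settings for 18 of the 39 members: RPS3A, RPSA, RPS6, RPS3, RPS7, RPS12, RPS13, RPS14, RPS15A, RPS27A, RPL9, RPL22L1, RPL26, RPL26L1, RPL27A, RPL34, RPL35 and RPL41. They kept it with the block under DESeq2 size factors, library sizes alone, TMM factors of other genes, DESeq2, limma-voom and each of the 3 trends. The share of all tested genes called in these fits was 4.6% with DESeq2 size factors, 3.6% with DESeq2, 7.3% with limma-voom, 9.59% with the trend on transcript length and GC content and 6.65% with that on coding length and GC content. In the same order 30, 31, 37, 29 and 27 of the 39 members kept the call. The share of all genes was 10.8% with library sizes alone, 9.15% with TMM factors of other genes and 7.08% with the coding trend fitted on other genes. There 39, 39 and 27 kept it. No setting changed how shared reads were counted. RPS3A and RPL41 have 100% shared words, and RPSA summed with RPSAP58 had log2 fold changes of only 0.43 in A4 and 0.16 in B212. The list was read off after the values were seen.

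Genes that work beside the ribosomal proteins were given from 3 lists. Of 28 tested genes with TOP starts or a role in translation, 8 were called higher and 1 lower with the block (32.1% called, beside 9.56% of all tested genes), and the median log2 fold change was 0.19. The higher ones included the noncoding host genes of small nucleolar RNAs with TOP starts, GAS5 at 0.51, ZFAS1 at 0.49 and SNHG5 at 0.47, each higher in both tags. The lower one was EEF2, the elongation factor that moves the ribosome along, with 3614 and 2987 CPM in A4 and 4238 and 3643 CPM in B212 (−0.25, adjusted p 0.0477, edgeR with the block).

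FAU, which codes for a ribosomal protein fused to a ubiquitin-like protein and whose symbol lies outside the family's naming, was not called. Its log2 fold change was 0.24 (adjusted p 0.0622) in edgeR with the block. GNB2L1, the older symbol of the small subunit scaffold RACK1, stood at 1022, 1074, 1082 and 1052 CPM.

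Of 40 tested genes of ribosome synthesis, assembly and its control, 4 were called, a share near the 9.56% of all tested genes and so no result about the list. These were 3 called higher, NMD3, RPF2 and WDR12, factors of large subunit assembly, and 1 lower, UBTF, a factor of rRNA transcription. The median log2 fold change of the 40 genes was 0.02. NMD3 had 123 and 167 CPM in A4 and 134 and 156 CPM in B212, and UBTF had 345 and 269 in A4 and 315 and 269 in B212, without overlap between the treatments in either gene.

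Of 75 tested mitochondrial ribosomal protein genes, 28 were called higher (37.3%, beside 6.13% of all tested genes) and 0 lower with a median of 0.21, led by MRPS23 at 0.49, MRPL13 at 0.47 and MRPL1 at 0.43. Between the tags, 2 of these 75 genes were called higher and 59 lower in B212, against 15 and 5 of the 80 cytosolic members. Of all tested genes 25.2% were called higher and 25.8% lower there. Of the 40 genes of ribosome synthesis, assembly and its control, 1 was called higher and 31 lower in B212. None of this was tested as a difference between lists. Of 20 tested pseudogene rows of the family, 3 were called with E2 in the fit with the block, RPS18P9 and RPL13AP6 higher and RPSAP58 lower. Over all tested genes 9.56% were called in that fit, so these few calls are no result about the pseudogene rows as a list.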

How the data were processed

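Poly(A) RNA was sequenced in 4 libraries, and the authors deposited raw counts per gene symbol as whole numbers. Per the submitters' processing notes, HISAT2, SAMtools, featureCounts and DESeq2 were used with the hg19 build, with no roles or versions. How multiply mapped reads and strand were treated is not given in the sources used here. Another 4 columns matched no sample and were not used. The tags in the column names could not be linked to the clone numbers of the labels, and pairs of DMSO and E2 libraries rest on the tags and on the labels naming the same clones under both treatments. Deviations from the group means correlated within a tag (Pearson r 0.871).

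Genes passing edgeR's filterByExpr (minimum count 10), 15599 in all, were fitted with edgeR 4.0.16 (TMM scaling, quasi-likelihood test, Benjamini-Hochberg over all tested genes, threshold 0.05) in R 4.3.3, without a block and with the tag as replicate block. Standard errors were computed from fold changes and F statistics, whose spread is drawn in part from all genes. Per-tag fold changes used a prior count of 2. Alternatives used DESeq2 1.42.0, limma 3.58.1 (voom) and trends fitted with mgcv 1.9.3. Sequences and promoters came from RefSeq (GRCh38.p14), and lengths, GC content and shared words from GENCODE 29, as 1 principal transcript per symbol. Of the tested genes 93.5% had a transcript.

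On simulated counts for 15599 genes, 200 were changed by 1 on the log2 scale, alike in both tags. Tag differences were as measured, but a single spread was used for all genes. The fit without the block recovered 0 of the changed genes and the blocked fit 199, with 14 false calls. The members' median change was 0.26, so this does not test calls of that size. The members and lists were chosen with earlier results of these data known. Members were named by a rule: L paralogs and parents, the smallest p-values in each direction (6 for E2 with the block, 4 for the tags), signs against the family or between tags, the 5 highest and 5 lowest levels per length, members under the filter, and members with a known role elsewhere. RPL31 and RPS10, and the members in lists of kept calls, were added. Of the other lists, the 3 genes with the smallest p-value, FAU and GNB2L1 were named, with the lower calls EEF2 and UBTF added. Some items that these rules took are not reported here.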

Additional observations from a re-analysis of the deposited data

Results flagged for a closer look

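For 12 members the E2 log2 fold change had opposite signs in the 2 tags. The difference between the tags was not tested for any of them, since each combination had 1 library. The values that follow are the log2 fold change in B212 minus that in A4. RPS26 (1.20), RPS2 (0.25) and RPL7L1 (0.076) were lower with E2 in A4 and higher in B212. The other 9 were higher in A4 and lower in B212: RPL39 (−0.87), RPL39L (−0.59), RPL23A (−0.48), RPL7A (−0.45), RPS28 (−0.34), RPL10 (−0.21), RPL28 (−0.17), RPLP2 (−0.14) and RPL13 (−0.14).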

How the results depend on the processing

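With the tag as replicate block, 1492 genes were called for E2, 40 of them members, against 0 in the fit with no block. With the block the counts of all genes and of members were 717 and 30 (DESeq2 size factors), 1686 and 41 (library sizes alone), 1427 and 40 (TMM factors of other genes), 562 and 31 (DESeq2), 1138 and 38 (limma-voom), 1496 and 35 (trend on transcript length and GC content removed), 1037 and 30 (trend on coding length and GC content removed) and 1104 and 30 (that trend fitted on other genes). DESeq2 with no block called 1 gene. The members' median E2 change was positive in every setting run, from 0.14 to 0.32. Large minus small subunit medians gave −0.074 with the transcript trend.

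Between the tags, 4456 genes and 4 members were called without a treatment term, and 35 members with the transcript trend removed. Leaving out 1 library gave 3203 to 5754 genes and 4 to 25 members, and 0 genes for E2. Over the 3 members with up to 10% shared words, the mean log2 change with E2 was 0.41 for the share of counts and −1.13 for the large to small ratio, against 0.25 and −0.13. These were RPL3L (14 to 37 counts), RPL10L (at most 1 count) and RPS27L. That ratio thus sets a few large subunit counts against a single small subunit gene, and nothing is read from it. Coding-length trends and the cut at 50% shared words were chosen after seeing the data.

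The E2 change of RPL28 turned to 0.00068 with the block, 0.00054 and 0.0012 with limma-voom without and with the block, and 0.12 with the transcript trend. RPL7L1 turned to −0.013 and −0.0094 with library sizes alone, without and with the block, and RPS2 to −0.0022 with them and the block. The transcript trend turned RPL7 (−0.044), RPL7A (−0.030), RPLP0 (−0.0038), RPLP1 (−0.037), RPLP2 (−0.043), RPS2 (−0.068) and RPS27 (−0.067). The coding-length trends of all and of other genes turned RPL3 (0.0052 and 0.0052), RPL39L (−0.019 and −0.015), RPL7L1 (−0.078 and −0.074), RPLP1 (−0.021 and −0.017), RPLP2 (−0.061 and −0.057), RPS27 (−0.011 and −0.0078) and RPS28 (both −0.036). Between the tags RPS27L turned to −0.0018 (DESeq2 size factors), −0.0025 (TMM of other genes), −0.0010 (DESeq2), −0.017 (no treatment term), −0.068 and −0.13 (transcript and coding trends), and RPS27 to −0.088 (transcript trend). The cause was not tested.

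Leaving out 1 library turned the E2 change of RPL10 (−0.044 to 0.22), RPL13 (−0.012 to 0.12), RPL13A (−0.13 to 0.38), RPL22 (−0.19 to 0.072), RPL23A (−0.012 to 0.32), RPL28 (−0.13 to 0.12), RPL3 (−0.19 to 0.15), RPL39L (−4.97 to 5.20), RPL7A (−0.045 to 0.26), RPL7L1 (−0.14 to 0.16), RPLP2 (−0.032 to 0.15), RPS2 (−0.11 to 0.14) and RPS26 (−1.55 to 0.48), and the tag difference of RPL26 (−0.026 to 0.55), RPL39 (−0.088 to 0.73) and RPS27L (−0.30 to 0.32). These fits had no block for E2 and no treatment term for the tags. Leaving out a library left 1 treatment with a single tag, so the E2 changes take in the gap between the tags. For RPL39L that gap was −6.05 on the log2 scale. The tag differences likewise take in the E2 change. With 2 libraries a group, low counts limit RPL3L, RPL39L in B212 and the 4 members under the filter.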
